A study of Mus musculus with 8 samples.

Results

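Cd34, Cd93, Egfl7, Sox4, Erg, Gata2, P2ry14, Ctla2a, Cd27 and Satb1 are genes used in this field to mark haematopoietic stem cells and multipotent progenitors, outside the Hoxa and Myc families. Their levels were followed through 4 sorted mouse bone marrow progenitor populations, whose later fate was not measured here. The 10 genes were taken by symbol from 19938 genes on an Affymetrix mouse gene array. They were chosen with earlier results of these data known. Their counts beside the shares of all genes are therefore a description and no test of the list. Each is read by 1 probe set whose annotation names that gene alone, so no choice among probe sets was needed.

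The populations were Id2-GFP+ pre-CD8, Id2-GFP- pre-CD8, Id2-GFP+ CDP and Id2-GFP- CDP, with 2 arrays each and 8 in all. CDP stands for common dendritic cell progenitor, while pre-CD8 is a name that the labels use without a definition or a sort gate. Titles and sources place a green fluorescent reporter in Id2, the gene of an inhibitor of E proteins, for all 4 populations. The genotype field, however, names heterozygous Id2-IRES-GFP reporter mice only for the 2 Id2-GFP- CDP samples and heterozygous Zbtb46-GFP reporter mice for the other 6. Population and genotype field cannot be told apart in any comparison with Id2-GFP- CDP. The labels give no animal age, and nothing in them says that the 2 arrays of a population came from separate animals or cultures, so p-values measure the spread between these samples, which may be technical.

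Stem cells and multipotent progenitors feed all blood lineages, and their identity is held by transcription factors of the ETS, GATA and SOX families working on shared regulatory regions. As cells commit to a lineage, surface proteins such as CD34 and CD93 are usually lost and the early transcription programme is shut down. Dendritic cells arise from such progenitors through the CDP, and in the cDC1 branch, the cross-presenting dendritic cells, Id2 is switched on.

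The Id2 transcript itself read log2 9.26 to 10.99 on the 4 Id2-GFP+ arrays and 5.14 to 7.18 on the 4 Id2-GFP- arrays, without overlap. A background range was set by 1194 odorant and vomeronasal receptor genes, with a median of log2 4.01 and a 95th percentile of 5.61. Of 12 dendritic cell progenitor markers, 9 read above that percentile on all 8 arrays, including Flt3, Irf8 and Csf1r. Id2, Zbtb46 and Clec9a read below it on 1 or 2 of the Id2-GFP- arrays and above it on every Id2-GFP+ array. Median log2 intensity was 6.12 to 6.27 on the 8 arrays, and the 2 arrays of a population correlated at 0.984 to 0.989 across genes. By mean intensity 4 arrays were brighter (461 to 478) and 4 dimmer (402 to 414), and each such set held 1 array of every population. The sets differed in spread as well, with a log2 interquartile range of 3.65 to 3.73 on the brighter and 3.15 to 3.41 on the dimmer arrays. The brighter array read higher than the dimmer one for 10 of 10 of the progenitor genes in Id2-GFP- pre-CD8, Id2-GFP+ CDP and Id2-GFP- CDP, and for 5 of 10 in Id2-GFP+ pre-CD8, against 59.9% to 66.0% of all genes. Values within each set are therefore given beside the main pooled results, with the genes whose sign differed between the sets. The sets come from the arrays' own intensity and are not a batch named in the labels. A fit with the set as a block takes out spread that was read from these same arrays, so its p-values may be too small.

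Id2-GFP- pre-CD8 had the highest group mean for all 10 genes, and 30.1% of all genes had their highest mean there. Both Id2-GFP- pre-CD8 arrays lay above the other 6 arrays for 7 of the 10, namely Egfl7, Sox4, Erg, P2ry14, Ctla2a, Cd27 and Satb1, against 8.22% of all genes. The lowest mean lay in Id2-GFP+ pre-CD8 for Cd34, Cd93, Egfl7, Sox4, Erg, Cd27 and Satb1. P2ry14 and Ctla2a were instead lowest in the CDP populations. On the dimmer arrays alone, Sox4, Cd27 and Satb1 read lower in Id2-GFP+ CDP than in Id2-GFP+ pre-CD8. The share of all genes with their lowest mean in Id2-GFP+ pre-CD8 was not counted. All values below are log2 of the deposited intensity, a scale on which a difference of 1 is a doubling, and the level of one gene cannot be set against that of another.

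**Figure D1:**
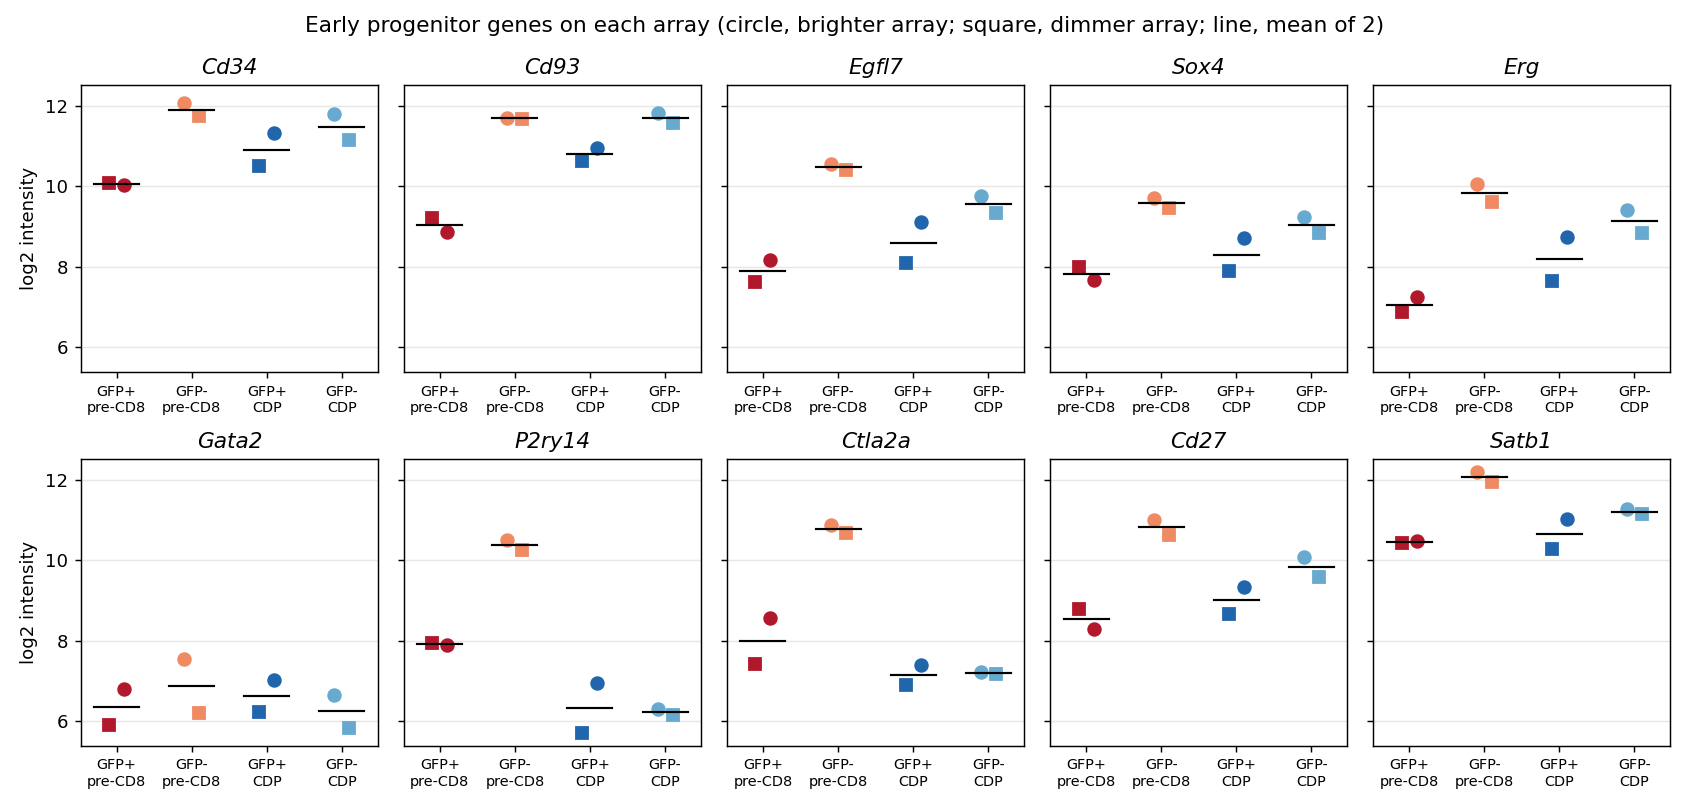
Log2 intensity (y axis) of the 10 early progenitor genes on each array, by population (x axis), with circles for the brighter array, squares for the dimmer array and a line at the mean of 2. Id2-GFP- pre-CD8 has the highest mean in all 10 panels, P2ry14 and Ctla2a stand apart by their low CDP levels (5.71 to 7.39 on the 4 CDP arrays), and Gata2 overlaps in all populations.

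Among the surface proteins, Cd34 encodes a sialomucin used to sort haematopoietic progenitors. It read 10.07 and 10.04 in Id2-GFP+ pre-CD8, against 12.06 and 11.74 in Id2-GFP- pre-CD8, with 10.50 and 11.31 in Id2-GFP+ CDP against 11.81 and 11.14 in Id2-GFP- CDP. Both Id2-GFP+ pre-CD8 arrays were the lowest of the 8, while Id2-GFP- pre-CD8 overlapped Id2-GFP- CDP and the 2 CDP populations overlapped each other. Cd93, a C-type lectin-like receptor of early progenitors, monocytes and endothelium, read 9.22 and 8.88 in Id2-GFP+ pre-CD8, against 11.71 and 11.68 in Id2-GFP- pre-CD8, with 10.64 and 10.95 in Id2-GFP+ CDP against 11.81 and 11.58 in Id2-GFP- CDP. For Cd93 the Id2-GFP- populations of both stages lay together at the top, Id2-GFP+ CDP lay below them and Id2-GFP+ pre-CD8 lay lowest, with no overlap between these 3 levels.

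Cd27, a TNF receptor family member present on multipotent and lymphoid progenitors, read 8.77 and 8.30 in Id2-GFP+ pre-CD8, against 10.99 and 10.63 in Id2-GFP- pre-CD8, with 8.66 and 9.34 in Id2-GFP+ CDP against 10.07 and 9.57 in Id2-GFP- CDP. Both Id2-GFP+ populations overlapped, Id2-GFP- CDP lay above them, and Id2-GFP- pre-CD8 lay highest. P2ry14, a G protein-coupled receptor for UDP-sugars, read 7.95 and 7.88 in Id2-GFP+ pre-CD8, against 10.50 and 10.25 in Id2-GFP- pre-CD8, with 5.71 and 6.95 in Id2-GFP+ CDP against 6.31 and 6.15 in Id2-GFP- CDP. Its 3 levels ran from Id2-GFP- pre-CD8 through Id2-GFP+ pre-CD8 to the CDP populations, which overlapped each other.

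Egfl7 and Ctla2a encode a secreted factor and a protease inhibitor. Egfl7, a secreted protein of endothelium and early progenitors whose gene holds the miR-126a precursor, read 7.63 and 8.16 in Id2-GFP+ pre-CD8, against 10.56 and 10.40 in Id2-GFP- pre-CD8, with 8.09 and 9.11 in Id2-GFP+ CDP against 9.75 and 9.35 in Id2-GFP- CDP. The Id2-GFP+ populations overlapped and both Id2-GFP- populations lay above them. Ctla2a, an inhibitor of cathepsin-like cysteine proteases that resembles their propeptide, read 7.43 and 8.56 in Id2-GFP+ pre-CD8, against 10.87 and 10.66 in Id2-GFP- pre-CD8, with 6.90 and 7.39 in Id2-GFP+ CDP against 7.22 and 7.18 in Id2-GFP- CDP. Id2-GFP- pre-CD8 was far above the rest, Id2-GFP+ pre-CD8 lay above both CDP populations by the narrow margin between 7.43 and 7.39, and the CDP populations overlapped.

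The remaining members act in the nucleus. Sox4, a high-mobility-group transcription factor, read 7.99 and 7.67 in Id2-GFP+ pre-CD8, against 9.72 and 9.46 in Id2-GFP- pre-CD8, with 7.89 and 8.72 in Id2-GFP+ CDP against 9.25 and 8.84 in Id2-GFP- CDP. Erg, an ETS factor needed for stem cell maintenance, read 6.88 and 7.24 in Id2-GFP+ pre-CD8, against 10.06 and 9.61 in Id2-GFP- pre-CD8, with 7.64 and 8.74 in Id2-GFP+ CDP against 9.42 and 8.84 in Id2-GFP- CDP. In both genes the Id2-GFP- populations lay above the Id2-GFP+ populations on every array. The margins were narrow, with 8.84 against 8.72 for Sox4 and 8.84 against 8.74 for Erg. Satb1, a chromatin organiser of lymphoid cells, read 10.43 and 10.48 in Id2-GFP+ pre-CD8, against 12.20 and 11.94 in Id2-GFP- pre-CD8, with 10.28 and 11.01 in Id2-GFP+ CDP against 11.26 and 11.15 in Id2-GFP- CDP. It showed the same separation, as narrowly, with 11.15 against 11.01. The share of all genes with this separation, also seen in Cd93, Egfl7 and Cd27, was not counted.

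Gata2, a zinc finger factor of stem cells that also serves mast cells and basophils, varied between arrays of 1 population by more than between populations. It read 5.90 and 6.81 in Id2-GFP+ pre-CD8, against 7.54 and 6.19 in Id2-GFP- pre-CD8, with 6.23 and 7.02 in Id2-GFP+ CDP against 6.64 and 5.83 in Id2-GFP- CDP. No pair of populations separated. The 4 brighter arrays (6.64 to 7.54) all lay above the 4 dimmer ones (5.83 to 6.23). Id2-GFP- CDP was the lowest population within each set, by margins of 0.16 and 0.07 below Id2-GFP+ pre-CD8.

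Between Id2-GFP+ and Id2-GFP- pre-CD8 cells, 9 of the 10 genes fell and none rose in the limma fit over all genes (adjusted p under 0.05 by Benjamini-Hochberg), against 2.7% of all genes lower and 3.57% higher. Groups were apart, with both Id2-GFP+ arrays below both Id2-GFP- arrays, for the same 9, against 21.5% of all genes. The median difference was -2.37, beside -0.01 over all genes, with medians of -2.36 on the brighter and -2.08 on the dimmer arrays. All 10 genes were lower within both sets, by values from -2.83 to -0.74 on the brighter and from -3.24 to -0.29 on the dimmer arrays. Ctla2a and Erg had the largest differences of the 10, at -2.77 ± 0.36 (log2 ± SE, adjusted p of 0.00365), a 6.84-fold lower intensity, and -2.77 ± 0.38 (adjusted p of 0.00455). Cd93 fell by 2.65 ± 0.20, the smallest adjusted p of the members at 0.000537, a 6.26-fold lower intensity.

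Of the surface receptors, P2ry14 fell by 2.46 ± 0.36 (adjusted p of 0.00584) and Cd27 by 2.28 ± 0.31 (adjusted p of 0.00428). Egfl7 fell by 2.59 ± 0.35 (adjusted p of 0.0043) and Satb1 by 1.61 ± 0.24 (adjusted p of 0.00681). The 2 genes whose calls depended on single arrays were Cd34, which fell by 1.85 ± 0.31 (adjusted p of 0.0106), and Sox4, which fell by 1.76 ± 0.31 (adjusted p of 0.0126). Without Id2-GFP+ pre-CD8 replicate 2 the adjusted p was 0.0727 for Cd34 and 0.105 for Sox4, and without Id2-GFP- pre-CD8 replicate 1 it was 0.0657 and 0.0781. Gata2 differed by -0.51, with a 95% interval of -1.69 to 0.67 and an adjusted p of 0.849. With the brightness set as a block its adjusted p was 0.0364, in a fit that called 13.2% of all genes lower.

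**Figure D2:**
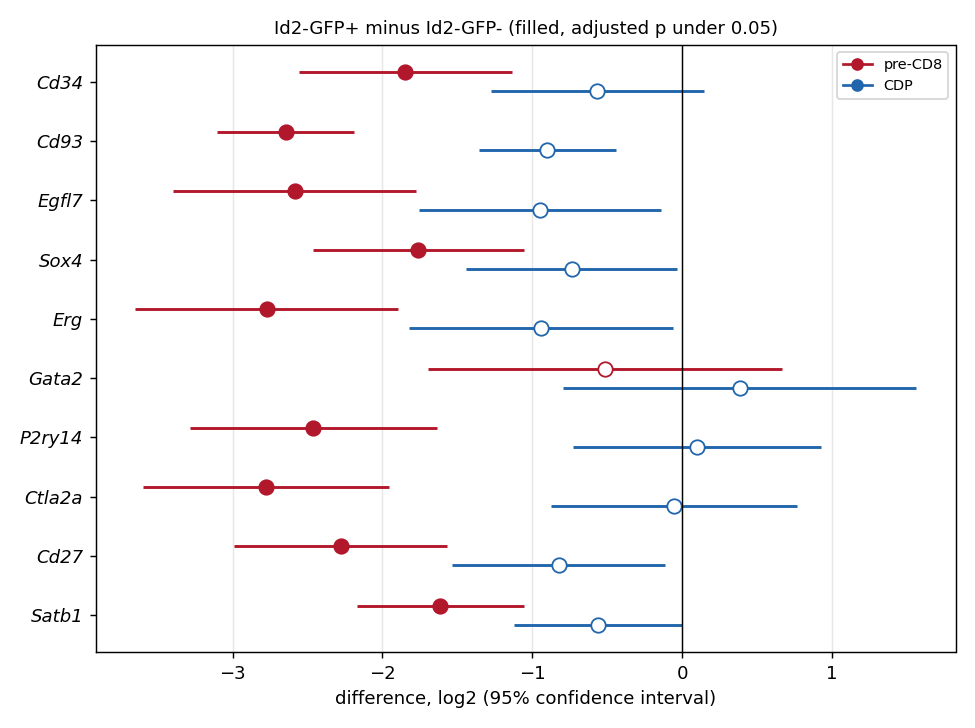
Difference of Id2-GFP+ minus Id2-GFP- cells (x axis, log2, with 95% confidence interval) for each gene (y axis), in pre-CD8 and in CDP, with filled points where the adjusted p is under 0.05. All 9 filled points are pre-CD8 differences, from -2.77 to -1.61, and the CDP points lie between -0.95 and 0.38.

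Within CDP, none of the 10 genes passed the limma test, against 0.597% of all genes higher and 0% lower. At an unadjusted p under 0.05 there were 5, all lower in Id2-GFP+ CDP, against 5.51% of all genes in either direction. Cd93, Egfl7, Sox4, Erg, Cd27 and Satb1 had both Id2-GFP+ arrays below both Id2-GFP- arrays, 6 of 10 against 12% of all genes. The differences for these 6 were -0.90 ± 0.20 for Cd93 (adjusted p of 0.174), -0.95 for Egfl7 (0.73), -0.74 for Sox4 (0.858), -0.94 for Erg (0.843), -0.82 for Cd27 (0.745) and -0.56 for Satb1 (0.904).

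Cd34, at -0.57, overlapped between the CDP populations, with a 95% interval of -1.27 to 0.14. For P2ry14 and Ctla2a the CDP differences were 0.10 and -0.05, with intervals of -0.73 to 0.92 and -0.87 to 0.77. These 2 genes changed sign between the sets, with 0.63 on the brighter and -0.44 on the dimmer arrays for P2ry14 and 0.17 and -0.28 for Ctla2a. The median over the 10 genes was -0.65, and -0.51 and -0.89 within the brighter and the dimmer set. With the set as a block, Cd93, Egfl7, Erg, Cd27 and Satb1 passed as lower (adjusted p of 0.00334, 0.0083, 0.00762, 0.0441 and 0.0337), in a fit that called 4.17% of all genes lower.

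The reporter difference was more negative in pre-CD8 than in CDP for all 10 genes, pooled and within both array sets, but the difference of differences passed for none of the 10 in limma, against 0.145% of all genes in either direction. At an unadjusted p under 0.05 there were 9, all lower, against 6.15% of all genes in either direction. Its median was -1.54, beside -0.01 over all genes. The sizes nearest to the threshold were -1.75 ± 0.28 for Cd93 (adjusted p of 0.0814), -2.72 ± 0.51 for Ctla2a (0.115) and -2.56 ± 0.51 for P2ry14 (0.135). With quantile normalisation Cd93 and Ctla2a passed as lower (adjusted p of 0.0328 and 0.0264), where 0.426% of all genes did, and without Id2-GFP+ CDP replicate 1 P2ry14 passed (0.0299). With the set as a block 9 passed, all but Sox4 (adjusted p of 0.0667), where 3.4% of all genes were called lower. No member pointed the other way, and in the fit without a block the difference between the stages was not past the threshold.

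Among Id2-GFP- cells, 2 of the 10 genes rose in pre-CD8 against CDP, P2ry14 and Ctla2a, and none fell, against 1.03% of all genes higher. P2ry14 was higher by 4.15 ± 0.36, a 17.7-fold higher intensity (adjusted p of 0.0017), and Ctla2a by 3.57 ± 0.36, an 11.9-fold higher intensity (adjusted p of 0.00352). Within the brighter and dimmer sets the differences were 4.18 and 4.11 for P2ry14 and 3.66 and 3.48 for Ctla2a, and no single array left out raised the adjusted p above 0.0232 and 0.0354. The genotype fields of these populations differ. Id2-GFP- pre-CD8 set against Id2-GFP+ CDP, where both genotype fields name the same reporter, gave 4.05 ± 0.36 for P2ry14 (adjusted p of 0.00108) and 3.62 ± 0.36 for Ctla2a (0.00161).

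Cd93 showed the opposite extreme among Id2-GFP- cells, with a difference of 0.00 between pre-CD8 and CDP and a 95% interval of -0.46 to 0.46. It was -0.10 on the brighter and 0.11 on the dimmer arrays. The other 7 genes had positive values that did not pass, from 0.43 for Cd34 to 0.99 for Cd27 (adjusted p of 0.244) and 0.86 for Satb1 (0.179). Arrays of the 2 populations did not overlap for 7 of 10 genes, Egfl7, Sox4, Erg, P2ry14, Ctla2a, Cd27 and Satb1, against 15.5% of all genes. With quantile normalisation 5 passed and with the set as a block 7, where 2.01% and 5.82% of all genes were called higher.

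**Figure D3:**
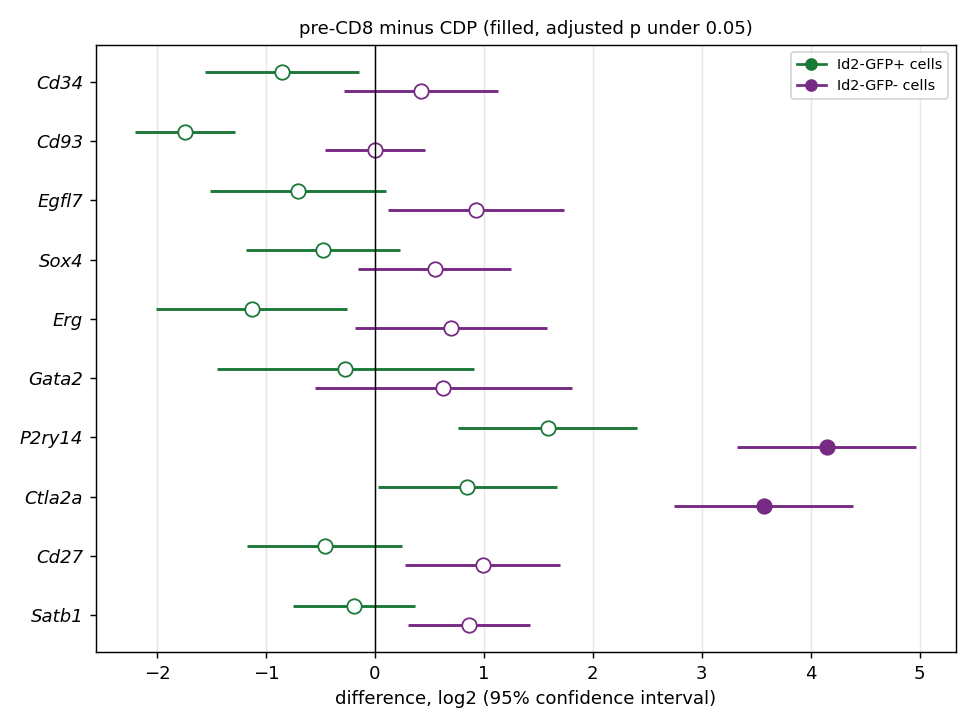
Difference of pre-CD8 minus CDP (x axis, log2, with 95% confidence interval) for each gene (y axis), among Id2-GFP+ and among Id2-GFP- cells, with filled points where the adjusted p is under 0.05. The 2 filled points are P2ry14 (4.15) and Ctla2a (3.57) in Id2-GFP- cells, and Cd93 lies at 0.00 in Id2-GFP- cells and at -1.74 in Id2-GFP+ cells.

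Among Id2-GFP+ cells, none of the 10 genes passed in limma between pre-CD8 and CDP, and 0% of all genes did. At an unadjusted p under 0.05 there were 5, 3 of them lower, against 3.22% of all genes in either direction. Cd93 came nearest, at -1.74 ± 0.20 in Id2-GFP+ pre-CD8 (adjusted p of 0.0577), with both arrays below both Id2-GFP+ CDP arrays and differences of -2.07 on the brighter and -1.41 on the dimmer arrays. P2ry14 pointed the other way, at 1.59 ± 0.36 (adjusted p of 0.5), and so did Ctla2a, at 0.85. Sox4, Cd27 and Satb1 changed sign between the sets, with -1.05, -1.04 and -0.53 on the brighter arrays and 0.09, 0.12 and 0.15 on the dimmer ones. Groups were apart for 3 genes below and 2 above, against 10.3% and 8.94% of all genes. With the set as a block 1 gene passed as higher, P2ry14, and 3 as lower, Cd34, Cd93 and Erg, where 0.973% and 1.1% of all genes were called. Quantile normalisation called Cd93 alone of the 10, as lower, beside 0.0401% of all genes.

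The other comparisons cross both stage and reporter and share arrays with those above. Id2-GFP+ pre-CD8 set against Id2-GFP- CDP gave 2 of 10 genes lower, against 0.401% of all genes: Cd93 fell by 2.64 ± 0.20 (adjusted p of 0.000887) and Erg by 2.07 ± 0.38 (0.0389). The Erg call was lost when any 1 of the 4 arrays compared was left out, with an adjusted p of up to 0.315 (without Id2-GFP- CDP replicate 1). Arrays were apart for 7 genes below and 2 above, P2ry14 and Ctla2a, against 17.9% and 15.6% of all genes. With the set as a block 7 genes passed as lower and 2 as higher, where 8.85% and 6.97% of all genes were called, and with quantile normalisation 7 and 1, where 1.64% and 2.91% were.

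Id2-GFP- pre-CD8 set against Id2-GFP+ CDP gave 6 of 10 genes higher, against 2.08% of all genes. Beside P2ry14 and Ctla2a these were Egfl7 (1.88, adjusted p of 0.0203), Cd27 (1.82, 0.0136), Satb1 (1.42, 0.0139) and Cd93 (0.90, 0.0409). Groups were apart for 9 genes, against 17.2% of all genes. Gata2 changed sign between the sets, with 0.53 on the brighter and -0.0393 on the dimmer arrays. Leaving out single arrays changed the count of 6 to between 2 and 7, with 2 when Id2-GFP- pre-CD8 replicate 1 was omitted (P2ry14 and Ctla2a) and 3 when Id2-GFP- pre-CD8 replicate 2 or Id2-GFP+ CDP replicate 1 was, and with the set as a block 9 passed, where 12.1% of all genes were called higher.

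Because P2ry14 and Ctla2a shared the pre-CD8 pattern, their upstream sequence is shown, with that of Ctla2b, the neighbouring paralog of Ctla2a. The windows are the 250 bases before the most upstream start in a table of promoters from RefSeq on GRCm38.p6, 5′ to 3′ on the gene's strand, which is the minus strand for all 3. They lie at chr3:59153493-59153742 for P2ry14, chr13:60936626-60936875 for Ctla2a and chr13:60897448-60897697 for Ctla2b. The first 2 adjoin the end of their gene's RefSeq span, whereas the Ctla2b window lies inside its gene, whose span reaches position 60897934. Capitals mark AGATAA, the core bound by GATA factors, read on either strand.
P2ry14: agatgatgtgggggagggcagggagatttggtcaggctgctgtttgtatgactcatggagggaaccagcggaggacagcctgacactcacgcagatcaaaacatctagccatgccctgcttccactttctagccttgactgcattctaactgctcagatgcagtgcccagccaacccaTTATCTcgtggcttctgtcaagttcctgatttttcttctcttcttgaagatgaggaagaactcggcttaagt
Ctla2a: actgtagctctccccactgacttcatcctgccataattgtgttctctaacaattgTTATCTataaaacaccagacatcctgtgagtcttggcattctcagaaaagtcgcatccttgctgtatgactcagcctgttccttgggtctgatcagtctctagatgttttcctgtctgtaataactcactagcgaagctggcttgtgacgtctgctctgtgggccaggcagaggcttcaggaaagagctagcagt
Ctla2b: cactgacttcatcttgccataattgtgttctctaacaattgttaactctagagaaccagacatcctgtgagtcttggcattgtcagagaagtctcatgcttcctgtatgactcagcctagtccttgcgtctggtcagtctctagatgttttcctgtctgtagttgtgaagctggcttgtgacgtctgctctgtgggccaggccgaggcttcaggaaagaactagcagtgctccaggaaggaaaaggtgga

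P2ry14 and Ctla2a each held 1 match, and the Ctla2b window, which is not upstream of the whole gene, held none. Of the 9 members with a window in the RefSeq table (Cd93 had no entry), these 2 were the ones with AGATAA, which 9.97% of 32536 windows of 250 bases held. The E-box CANNTG, the core bound by E proteins, was in 5 of 9 (Egfl7, Sox4, P2ry14, Ctla2a and Cd27) and in 66.2% of all windows. AGGAAG, a core bound by ETS factors, was in 4 of 9 (Cd34, Egfl7, Sox4 and P2ry14) and in 29.55% of all windows. All 3 motifs were searched on both strands, matches of different motifs may overlap, and a match describes letters and no binding. The Ctla2a and Ctla2b windows were identical at 208 of 228 aligned bases, 91.2%, and whether probes of the 2 paralogs share signal was not tested.

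Ctla2b followed Ctla2a. It read 5.08 and 6.15 in Id2-GFP+ pre-CD8, against 8.16 and 7.44 in Id2-GFP- pre-CD8, with 5.04 and 5.59 in Id2-GFP+ CDP against 5.63 and 5.76 in Id2-GFP- CDP, so that Id2-GFP- pre-CD8 alone lay high. It fell by 2.19 ± 0.38 in Id2-GFP+ against Id2-GFP- pre-CD8 (adjusted p of 0.0123) and, among Id2-GFP- cells, rose by 2.11 ± 0.38 in pre-CD8 against CDP (adjusted p of 0.0368). The first call was lost without Id2-GFP- pre-CD8 replicate 1 (adjusted p of 0.068), and the second without any 1 of the 4 Id2-GFP- arrays (up to 0.209, without CDP replicate 1).

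The miR-126a precursor lies within Egfl7, and miR-126 is known to restrain cell cycle entry of stem cells. Its mature 3′ form, at chr2:26591402-26591423 on the plus strand of GRCm38.p6 in RefSeq, is shown with its seed, bases 2 to 8, in capitals.
mmu-miR-126a-3p: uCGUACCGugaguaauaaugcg

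The array has a probe set for the precursor, which read 2.85 to 3.31 on all 8 arrays, below the median of 4.01 of the receptor genes taken as background. It therefore gave no readable level while the host transcript Egfl7 changed, and the mature miRNA is not measured by this array.

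Of 18 listed paralogs and partners of the 10 genes, 16 were measured. In Id2-GFP+ against Id2-GFP- pre-CD8, 2 fell, 1 rose and the median was -0.06, against 2.7% of all genes lower and 3.57% higher. Egfl8, the closest relative of Egfl7, moved opposite to it: it read 9.87 and 10.29 in Id2-GFP+ pre-CD8, against 8.14 and 7.99 in Id2-GFP- pre-CD8, with 8.67 and 8.67 in Id2-GFP+ CDP against 8.27 and 8.01 in Id2-GFP- CDP. It rose by 2.01 ± 0.22 (adjusted p of 0.002), with both Id2-GFP+ pre-CD8 arrays above all the others. Notch1, a receptor of lymphoid fate, fell by 2.07 ± 0.39 (adjusted p of 0.0186), a call lost without either Id2-GFP- pre-CD8 array or without Id2-GFP+ pre-CD8 replicate 1 (up to 0.101). P2ry13, a neighbour and relative of P2ry14, differed by -1.24 (adjusted p of 0.0589).

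Fli1, the ETS relative of Erg, was named after its values were seen. It averaged 10.23 in Id2-GFP+ pre-CD8, 10.20 in Id2-GFP- pre-CD8, 10.24 in Id2-GFP+ CDP and 10.14 in Id2-GFP- CDP, and its pre-CD8 difference was 0.03 ± 0.28. None of the paralogs and partners passed within CDP (limma).

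Of 28 other stem cell and multipotent progenitor genes, 25 were measured. In Id2-GFP+ against Id2-GFP- pre-CD8, 7 fell (Adgrg1, Flt3, Gfi1b, Hmga2, Lyl1, Meis1 and Myb), 2 rose (Cd48 and Thy1), against 2.7% and 3.57% of all genes, and the median was -0.55. Adgrg1, an adhesion receptor of stem cells, fell by 2.96 ± 0.44 (adjusted p of 0.00661). Hmga2, a chromatin protein of fetal stem cells, fell by 1.50 ± 0.22 (adjusted p of 0.00624). Gfi1b, a repressor, fell by 1.71 ± 0.33 (0.0188), and Cd48, a surface marker gained after the stem cell stage, rose by 1.15 ± 0.18 (0.00836). Without Id2-GFP+ pre-CD8 replicate 2 the adjusted p was 0.143 for Gfi1b and 0.0727 for Cd48, and without Id2-GFP- pre-CD8 replicate 2 it was 0.103 for Gfi1b.

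Among Id2-GFP- cells, Gfi1b and Hmga2 were higher in pre-CD8 than in CDP, by 2.03 ± 0.33 (adjusted p of 0.0237) and 1.19 ± 0.22 (0.0436). For Gfi1b the adjusted p passed 0.05 on omitting Id2-GFP- pre-CD8 replicate 2 or 1 of the arrays of Id2-GFP- CDP (up to 0.162), and the Hmga2 call was lost without any 1 of the 4 Id2-GFP- arrays or either Id2-GFP+ pre-CD8 array (up to 0.327). Hlf, at 2.17 ± 0.56, and Meis1, at 1.65 ± 0.44, did not pass (adjusted p of 0.129 and 0.153). The median of the 25 genes was 0.34, and with the set as a block 10 passed as higher, where 5.82% of all genes did. Procr, Slamf1 and Tek lay within background on all 8 arrays, while Hlf read 6.44 to 9.78 and Meis1 7.33 to 10.41 on the same arrays. None of the 25 passed within CDP (limma).

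**Figure D4:**
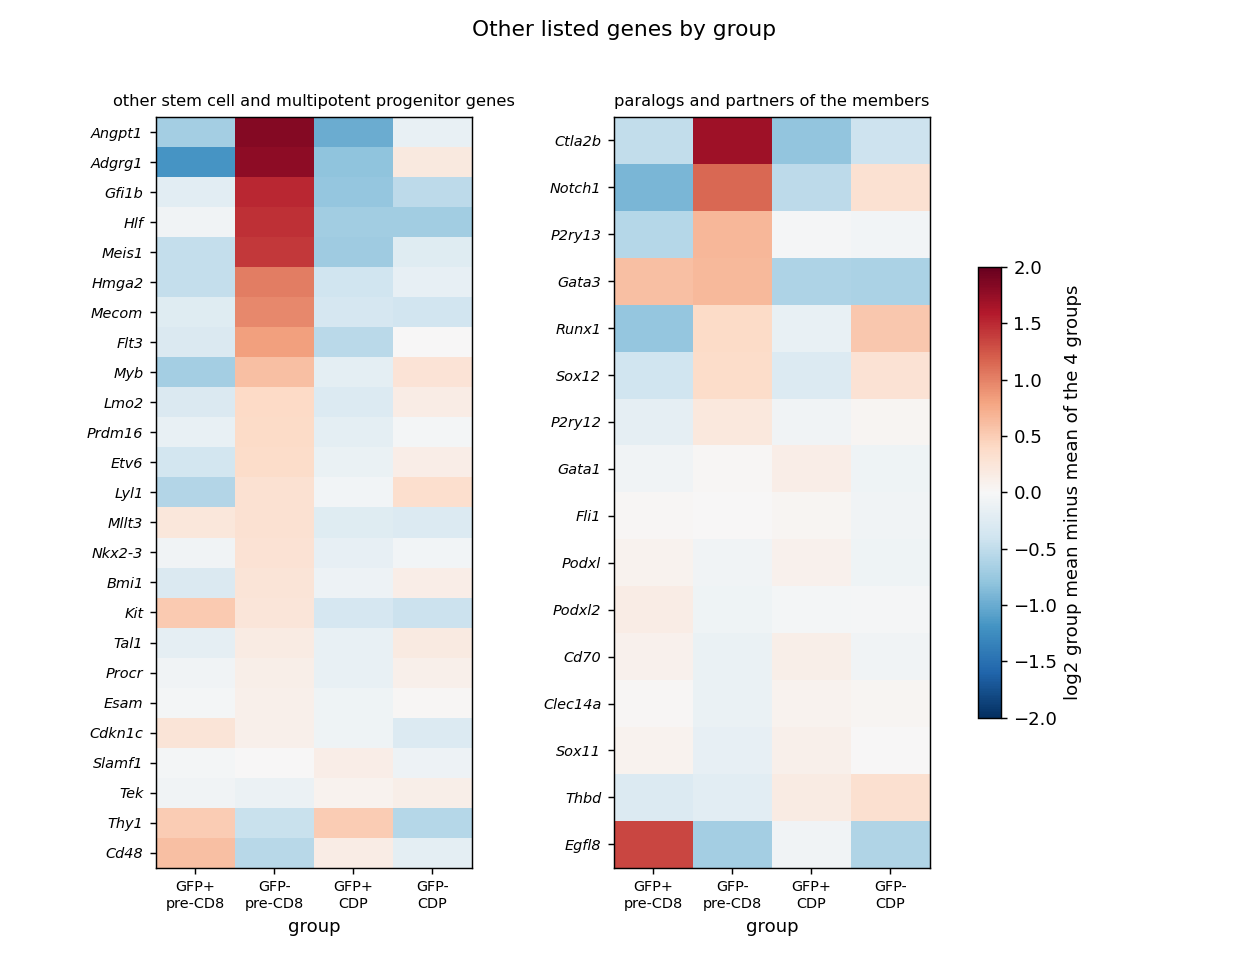
Group mean of log2 intensity minus the mean of the 4 groups (colour scale, log2) for 25 other stem cell and multipotent progenitor genes (left) and 16 paralogs and partners (right), by population (x axis). Id2-GFP- pre-CD8 is the reddest column for Adgrg1, Gfi1b and Ctla2b, while Egfl8 and Cd48 are highest in Id2-GFP+ pre-CD8 and Fli1 is flat at 10.14 to 10.24.

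Genes of other cell types moved beside the 10 genes. Of 15 measured lymphoid progenitor genes, 11 fell in Id2-GFP+ against Id2-GFP- pre-CD8, against 2.7% of all genes, with a median of -2.07. Their summed intensity was 8158 to 9389 in Id2-GFP+ pre-CD8, 25191 to 25438 in Id2-GFP- pre-CD8, 7238 to 9820 in Id2-GFP+ CDP and 10201 to 11068 in Id2-GFP- CDP, and none of the 15 lay within background on all arrays. Rag1 and Rag2, the recombinase genes, fell by 3.91 ± 0.32 (adjusted p of 0.000711) and 3.09 ± 0.14 (0.000161). Among Id2-GFP- cells 8 of the 15 were higher in pre-CD8 than in CDP, against 1.03% of all genes, with a median of 2.74.

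Of 13 neutrophil and granule markers, 8 rose and 1, Mpo, fell in Id2-GFP+ pre-CD8 against Id2-GFP- pre-CD8, and 8 rose in Id2-GFP+ against Id2-GFP- CDP, against 3.57%, 2.7% and 0.597% of all genes. Their summed intensity was 42424 to 48792 in Id2-GFP+ pre-CD8, 13985 to 18713 in Id2-GFP- pre-CD8, 61129 to 93251 in Id2-GFP+ CDP and 18413 to 31497 in Id2-GFP- CDP, and none of the 13 was within background on all arrays. Dendritic cell progenitor genes moved as well. Of the 12 markers, 8 rose in Id2-GFP+ against Id2-GFP- pre-CD8 (Batf3, Clec9a, Csf2ra, Cx3cr1, Id2, Irf8, Itgax and Zbtb46) and 2 fell (Csf1r and Flt3), with a median of 1.32. Batf3, a transcription factor of the cDC1 branch, rose by 3.04 ± 0.23 (adjusted p of 0.000537) and Clec9a, a receptor of that branch, by 4.29 ± 0.40 (0.00102). The summed intensity of the 12 was 18533 to 23890 in Id2-GFP+ pre-CD8, 13098 to 14244 in Id2-GFP- pre-CD8, 16087 to 18401 in Id2-GFP+ CDP and 16881 to 17597 in Id2-GFP- CDP. Within CDP 2 rose, Batf3 and Id2. By titles and sources the sorted reporter lies in Id2, so the rise of Id2 at both stages follows from the sort. In sorted bulk samples, fewer cells of a type and less RNA per cell cannot be told apart.

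Endothelium shares Cd34, Cd93, Egfl7 and Erg, so its markers were read as well. Of 16 measured, 2 fell in Id2-GFP+ against Id2-GFP- pre-CD8, against 2.7% of all genes. These were Emcn, by 1.88 ± 0.16 (limma adjusted p of 0.000756), and Eng, by 1.66 ± 0.22 (0.00412). The median of the 16 was -0.11. Kdr, Tek and Sox17 lay within background on all 8 arrays. Other markers did not, with Pecam1 at 9.82 to 10.39 and Eng at 7.27 to 9.16 on the 8 arrays. The summed intensity was 1853 to 1893 in Id2-GFP+ pre-CD8, 2635 to 2873 in Id2-GFP- pre-CD8, 1950 to 2156 in Id2-GFP+ CDP and 2483 to 2552 in Id2-GFP- CDP.

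Of 10 B lineage markers, 4 fell in Id2-GFP+ against Id2-GFP- pre-CD8, where 2.7% of all genes fell and 3.57% rose. The summed intensity of the 10 was 849 to 851 in Id2-GFP+ pre-CD8, beside 1411 to 1685 in Id2-GFP- pre-CD8. Cd79a and Ms4a1 alone of the 10 lay within background on all arrays. Of 9 pDC markers 4 fell (4692 to 6224 in Id2-GFP+ pre-CD8, beside 6879 to 7670 in Id2-GFP- pre-CD8). Of 7 stromal markers 1, Pdgfrb, fell (489 to 534, against 1298 to 1312 in Id2-GFP- pre-CD8). Cxcl12, Lepr and Kitl alone of the stromal markers lay within background on all arrays. Of 12 T and NK markers 2 rose and 1 fell (1176 to 1660 in Id2-GFP+ pre-CD8, beside 1902 to 2457 in Id2-GFP- pre-CD8). None of 9 basophil and mast cell markers, which share Gata2, and none of 8 erythroid and megakaryocyte markers passed in that comparison in limma. Ms4a2, Fcer1a and Cma1 of the mast cell list and Klf1 and Pf4 of the erythroid list lay within background on all arrays. Others read above background on every array, with Mcpt8 at 7.33 to 9.45 and Prss34 at 7.41 to 9.48. Tfrc of the erythroid list read 8.64 to 9.53. The lists share genes, so their counts are not separate. Among genes that fell, the lymphoid list shares Ebf1 with the B lineage list, Ccr9 with the pDC list and Notch1 with the partners. Flt3 stands in the stem cell, lymphoid and dendritic cell progenitor lists. The part of the lymphoid, neutrophil, dendritic cell progenitor, endothelial, B lineage, pDC, stromal, T and NK genes in the differences of the 10 genes was not tested.

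Across the 8 arrays the 45 pairs of the 10 genes correlated with Pearson r from 0.11 (Cd93 with P2ry14) to 0.989 (Cd34 with Erg), with a median of 0.754. Cd34, Egfl7, Sox4, Erg, Cd27 and Satb1, a subset formed after seeing the values, had 15 pairs of 0.902 to 0.989, and P2ry14 with Ctla2a had 0.959. The points are 4 populations of 2 arrays and share the brightness sets, so these values describe the pattern only.

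For the 6 genes whose group means spanned at least log2 2, the 3 most similar other genes were found among 1812 whose own means spanned at least log2 1. Egfl7 was nearest to Pde3b (r of 0.997), Xpc (0.994) and Slc27a1 (0.991), and Erg to Kif17 (0.996), Adgrg3 (0.991) and the transcription factor gene Myb (0.991). P2ry14 was nearest to the chemokine receptor gene Ccr9 (0.988), Lax1 (0.987) and Prkca (0.986), and Ctla2a to Myl10 (0.996), Smad7 (0.984) and Tbc1d10c (0.984). Cd27 was nearest to Mex3a (0.994), Gab1 (0.991) and Phlda3 (0.99). Cd93, whose Id2-GFP- populations lay together at the top, was nearest to Dusp7 (0.988), Plscr3 (0.974) and Pde4d (0.968).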

How the data were processed

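RNA from sorted marrow progenitors was labelled with a kit for picogram inputs and hybridised to Affymetrix arrays, 2 for each of 4 populations, per the labels' protocols. The deposited table holds linear intensity for 28853 probe sets. The authors made these intensity values with RMA through Affymetrix Expression Console, per the submitters' processing notes, and versions are not given in the sources used here. RMA corrects background, normalises arrays and summarises probes, which compresses dim values and understates their differences. The deposited arrays nevertheless differed in spread between the brighter and dimmer sets.

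Intensities were taken to log2 without further normalisation, as the design provided for a linear table. GEO's platform annotation gave 1 symbol to 21789 probe sets, several to 1621 and none to 5443. Probe sets with several or none were not used. Of the first, 21698 matched RefSeq by Entrez identifier, which changed 0 symbols. A gene with several probe sets (999 of 19938) was represented by that of highest mean. Groups came from titles.

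Limma 3.58.1 in R 4.3.3 fitted a mean for each population over all 8 arrays (lmFit, eBayes with trend, 4 residual and 8.19 total degrees of freedom), two-sided, with Benjamini-Hochberg adjustment over all 19938 genes and a threshold of 0.05. Figures and sequence searches used Python 3.11.15. With 2 arrays a population precision is limited. Tested on simulated data for Id2-GFP+ against Id2-GFP- pre-CD8 with all 19938 genes, the fit recovered 36% of genes changed by log2 1, 88% at log2 2 and 98% at log2 3. It made 9 false calls. The simulated noise was independent between genes and arrays and lacked the shared brightness of these arrays. The rates may therefore not hold for these data.

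The 10 genes, the lists and the brightness sets were chosen with earlier results of these data known. All 10 genes are named; from each other list up to 4 genes with the smallest p in a comparison are named, beside full lists of passing genes. Genes of similar pattern were the 3 of highest correlation, predicted genes left out. Alternatives left out each array, quantile-normalised, median-centred, used replicate number or brightness set as a block, left out dim genes, dropped the trend, averaged probe sets or fitted 2 populations alone.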

Additional observations from a re-analysis of the deposited data

How the results depend on the processing

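The fall of 9 of the 10 genes in Id2-GFP+ against Id2-GFP- pre-CD8 was 9 with quantile normalisation and with a replicate block, 10 with the brightness set as a block, and 7 to 9 with single arrays left out. Within CDP 0 genes passed as lower, but 5 with the set as a block. For Id2-GFP- cells, pre-CD8 against CDP, the 2 genes higher became 5 with quantile normalisation and 7 with the set as a block. For Id2-GFP+ cells, pre-CD8 against CDP, 0 genes higher became 1 and 0 lower became 3 with the set as a block, and 1 was lower with quantile normalisation or dim genes left out. For Id2-GFP+ pre-CD8 against Id2-GFP- CDP, 0 genes higher became 1 with quantile normalisation, dim genes left out or the 2 groups alone, 2 with the set as a block, and 0 to 1 with single arrays left out. The 2 lower there became 7 with quantile normalisation or the set as a block, 4 with dim genes left out or the 2 groups alone, 1 with a replicate block, and 1 to 4 with single arrays left out. The 6 genes higher for Id2-GFP- pre-CD8 against Id2-GFP+ CDP became 2 to 7 with single arrays left out. For the difference of differences, 0 genes lower became 2 with quantile normalisation, 9 with the set as a block and 0 to 1 with single arrays left out. With 1 array left out, the lone array of its group is assumed to vary like the other groups. Apart from fewer genes or arrays tested, the causes were not tested. Median centring, no trend and averaged probe sets moved no count of these beyond 1.5 times.

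Outside Gata2, directions turned only where the main difference was near 0. For Gata2 the main differences reached -0.51 (Id2-GFP+ against Id2-GFP- pre-CD8) and 0.63 (Id2-GFP- pre-CD8 against Id2-GFP- CDP). Cd93 in Id2-GFP- pre-CD8 against Id2-GFP- CDP was -0.0725 after median centring and -0.11 to 0.12 with single arrays left out. P2ry14 within CDP was -0.0160 after quantile normalisation and -0.52 to 0.72 with arrays left out, and Ctla2a was -0.29 to 0.19. Satb1 in Id2-GFP+ pre-CD8 against Id2-GFP+ CDP was -0.56 to 0.18. Gata2 turned with arrays left out in every pair: -1.19 to 0.16 (Id2-GFP+ against Id2-GFP- pre-CD8), -0.0203 to 0.79 (within CDP), -0.0498 to 1.30 (Id2-GFP- pre-CD8 against Id2-GFP- CDP), -0.72 to 0.18 (Id2-GFP+ pre-CD8 against Id2-GFP+ CDP), -0.34 to 0.57 (Id2-GFP+ pre-CD8 against Id2-GFP- CDP) and -0.43 to 0.92 (Id2-GFP- pre-CD8 against Id2-GFP+ CDP).

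Whether replicate numbers pair the samples was not settled. Deviations of replicate 1 from its group mean correlated at 0.690 between the Id2-GFP+ groups and 0.713 between the Id2-GFP- groups. Across reporter classes they correlated at -0.685 to -0.626. The signs match the brightness of the arrays, so these correlations cannot tell pairing from brightness. Crossing the numbers across reporter classes gives the brightness sets, whose counts are above. With the replicate block, 340 genes fell and 498 rose in Id2-GFP+ against Id2-GFP- pre-CD8, against 538 and 711 without it and 2625 and 2197 with the set as a block.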
